A study of Homo sapiens with 8 samples.

Results

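The genes described here are 9 human genes that buffer zinc, sense it or export it: the metallothioneins MT1E, MT1F, MT1G, MT1M, MT1X, MT2A and MT3, the transcription factor MTF1 and the zinc exporter SLC30A1. They are 9 of the 60676 Ensembl genes in the count table, and each symbol was matched to 1 identifier. They were chosen by symbol with their levels in all 4 media already known, so the values that chose them include each comparison with control medium. Their differences between media are therefore given as descriptions, with standard errors and no p-values, and the calls that the fit across all genes made among them are counted as a description only. Genes outside the list were tested in the fit across all genes. The other gene lists were also chosen with earlier results of these data known, so counts over those lists are descriptions too.

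The libraries were made from IGR-N91, an established human cell line from a stage 4 neuroblastoma (NB) that expresses MYCN, grown as aggregates in hanging drops. One group was kept in control medium (serum-containing DMEM). The other groups received such medium after it had been conditioned by sympathetic ganglia of day 8 chick embryos (E8-cSGcm), dorsal root ganglia of day 8 chick embryos (E8-cDRGcm) or sympathetic ganglia of mouse embryos at E15.5 (E15.5-mSGcm). Aggregates were collected 20 h later, and each of the 4 groups had 2 libraries. All groups are 1 cell line, of which the study also held a derivative with a GFP transgene, and the labels do not say which was used. The study's samples are given as distinct, but whether the duplicates were separate cultures is not stated, so standard errors and p-values measure only the spread between these libraries, which may be technical. The 2 control libraries are shared by all 3 comparisons.

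Total counts ranged from 7930765 to 15060744 per library, and the E15.5-mSGcm libraries were the shallowest, with 7930765 and 8937397. A floor of 3 reads in a library corresponded to 0.197 to 0.384 CPM (the usual depth-scaled count, taken relative to the library total times its TMM factor). Of 10 noradrenergic NB markers, 9 passed the count filter, and CHGA was listed at 0 in every library. The summed level of that list was 6670 to 6823 CPM in control medium, 5163 to 5476 CPM in E8-cSGcm, 3973 to 4056 CPM in E8-cDRGcm and 4139 to 4307 CPM in E15.5-mSGcm. Most of it was MYCN, at 4672 and 4602 CPM in control medium. Of the 9 markers 7, 8 and 7 lay below the controls in E8-cSGcm, E8-cDRGcm and E15.5-mSGcm. Of all tested genes, 30.5%, 36.8% and 35.9% did so. In E15.5-mSGcm DBH lay above the controls. Of 6 fibroblast markers, 4 were upregulated and 1 (COL1A1) downregulated in E15.5-mSGcm, beside 6.65% and 7.27% of all tested genes. Their summed level there was 161 to 174 CPM against 157 to 174 CPM in control medium. The glial markers SOX10 and FABP7 were at 0 in every library, and the glial list summed to 1.12 to 1.53 CPM in control medium and to 2.24 to 4.10 CPM in the conditioned media. No immune or endothelial marker passed the filter. The part of these lists, and of depth, in the values given next was not tested, and in bulk RNA fewer expressing cells cannot be told apart from less RNA per cell.

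Metallothioneins are small proteins rich in cysteine that bind zinc and copper and release zinc to other proteins. MTF1 is a zinc finger transcription factor that, when zinc is plentiful, binds metal response elements and switches on metallothionein genes and SLC30A1, which encodes the zinc exporter ZnT1 of the plasma membrane. Transcripts of the MT1 genes, MT2A and SLC30A1 are widely used as a readout of free zinc in a cell, and metallothioneins are also known to respond to copper, cadmium, oxidants and glucocorticoids.

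The promoter sequences are shown because metal response elements are the switch that metallothionein genes and SLC30A1 are known to share. RefSeq promoters (GRCh38.p14) were found for 4 of the 9 genes, MT2A, MT1X, SLC30A1 and MTF1, and the 250 bases before the annotated start were searched on both strands for the core TGCACNC or TGCGCNC. Capitals mark the matches, and each sequence is written 5′ to 3′ on the strand of its gene. MT2A lies on the plus strand at chr16:56608334-56608583, MT1X on the plus strand at chr16:56682220-56682469 and SLC30A1 on the minus strand at chr1:211579162-211579411.
MT2A: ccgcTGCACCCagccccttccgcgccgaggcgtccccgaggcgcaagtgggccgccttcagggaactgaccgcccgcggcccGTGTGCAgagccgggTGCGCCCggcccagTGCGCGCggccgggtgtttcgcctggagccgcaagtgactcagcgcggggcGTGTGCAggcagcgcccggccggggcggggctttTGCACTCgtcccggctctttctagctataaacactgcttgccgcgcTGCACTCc
MT1X: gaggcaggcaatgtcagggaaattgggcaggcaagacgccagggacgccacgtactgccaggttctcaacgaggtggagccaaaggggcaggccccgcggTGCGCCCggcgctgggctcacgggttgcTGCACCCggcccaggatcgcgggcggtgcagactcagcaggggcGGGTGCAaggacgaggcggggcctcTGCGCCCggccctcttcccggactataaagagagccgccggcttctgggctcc
SLC30A1: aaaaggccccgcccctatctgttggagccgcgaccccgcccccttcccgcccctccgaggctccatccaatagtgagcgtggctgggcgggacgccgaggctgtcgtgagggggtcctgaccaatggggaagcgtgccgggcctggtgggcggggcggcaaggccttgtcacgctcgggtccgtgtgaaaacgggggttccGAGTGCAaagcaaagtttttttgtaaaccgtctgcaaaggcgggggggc
MT2A held 7 matches, MT1X 4 and SLC30A1 1, and the MTF1 promoter held none. Of the 35116 promoters in the table, 24.8% held at least 1 match, 0.37% at least 4 and 0.0313% at least 7. The single match of SLC30A1 is thus common among promoters, whereas the counts of MT2A and MT1X were rare. The match of MT2A nearest to the start lay 8 to 2 bases before it, and the nearest matches of MT1X and SLC30A1 lay 53 to 47 and 49 to 43 bases before it. A match is a stretch of letters, and binding was not measured.

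**Figure D1:**
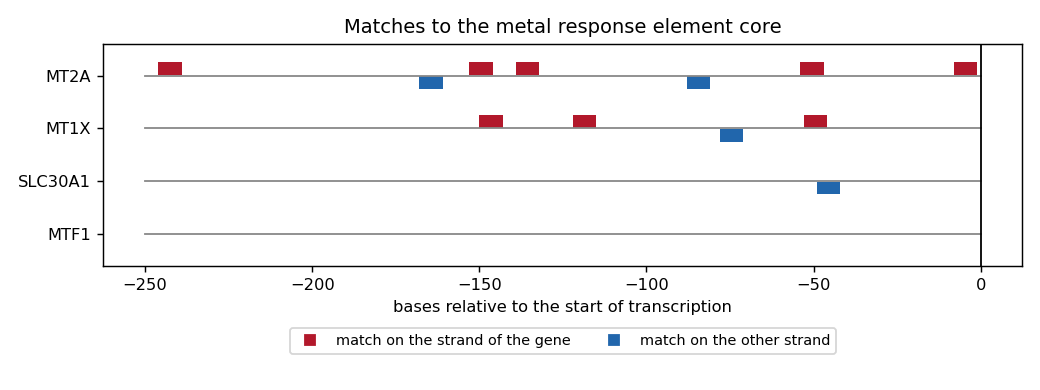
Positions of metal response element core matches in the 250 bases before the start of transcription of MT2A, MT1X, SLC30A1 and MTF1, in bases relative to the start, with matches on the strand of the gene drawn above each line and those on the other strand below it. MT2A holds 7 matches, MT1X 4, SLC30A1 1 and MTF1 none.

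The 7 metallothionein genes lie on chromosome 16 (GRCh38) between the start of MT3 at 56589528 and the end of MT1X at 56684196, with MT2A (56608584 to 56609497) on one side of the MT1 genes and MT1X (56682470 to 56684196) on the other. MTF1 (37809574 to 37859592) and SLC30A1 (211571568 to 211579161) lie on chromosome 1. Because the MT1 genes are close copies, every 75-base window of their transcripts, the length of 1 read, was compared with the transcripts of all other genes. None of the windows of MT1F, MT2A or SLC30A1 was shared, against 1.43% for MT1E, 5.72% for MT1G and 14.7% for MT1X. The MT1X windows were shared with MT1G, the pseudogene MT1XP1 and ENSG00000259827, a gene on the same strand whose exons overlap those of MT1X. The counts of MT1X, and to a smaller extent those of MT1G and MT1E, are uncertain at least to that degree. Only exact matches were counted, so reads aligned with mismatches could be shared beyond these percentages, also for MT1F.

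SLC30A1 carried the most reads of the 9 genes, and its level stood apart in every group. It stood at 54.6 and 61.2 CPM in control medium (715 and 932 reads), 37.1 and 37.3 CPM in E8-cSGcm (463 and 534 reads), 47.7 and 47.0 CPM in E8-cDRGcm (639 and 643 reads) and 66.6 and 72.5 CPM in E15.5-mSGcm (521 and 636 reads). Both libraries of each chick medium lay below both controls, both mouse libraries lay above them, and no group overlapped its neighbour in the order E8-cSGcm, E8-cDRGcm, control, E15.5-mSGcm. The fitted log2 difference from control was -0.64 ± 0.0757 (SE, n = 2 libraries per group) in E8-cSGcm, which is 1.56-fold lower. It was -0.29 ± 0.0731 in E8-cDRGcm and 0.26 ± 0.0744 in E15.5-mSGcm. In E8-cSGcm the log2 difference was -0.55 without control replicate 2, short of a 1.5-fold change.

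MTF1 itself did not separate by medium. Its 8 libraries ranged from 17.9 to 23.4 CPM, both extremes came from E8-cDRGcm, and all neighbouring groups overlapped. The group means were 19.8 ± 1.11 CPM (SD, n = 2) in control medium, 19.6 ± 0.399 CPM in E8-cSGcm, 20.6 ± 3.86 CPM in E8-cDRGcm and 20.0 ± 2.13 CPM in E15.5-mSGcm. The ratio of pooled reads to control had a 95% counting interval (exact, conditional binomial) of 0.880 to 1.12 in E8-cSGcm, 0.926 to 1.17 in E8-cDRGcm and 0.887 to 1.17 in E15.5-mSGcm. These intervals, like all floors and counting intervals given here, leave out all but counting error, and reads were not tagged with molecular identifiers.

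MT2A, the most widely expressed metallothionein, gave more reads than all MT1 genes together in 7 of 8 libraries, and as many in the other. Its level was 5.19 and 3.81 CPM in control medium (68 and 58 reads), 3.20 and 3.36 CPM in E8-cSGcm (40 and 48 reads), 3.73 and 5.12 CPM in E8-cDRGcm (50 and 70 reads) and 7.42 and 5.81 CPM in E15.5-mSGcm (58 and 51 reads). Both E8-cSGcm libraries were below both controls, both E15.5-mSGcm libraries were above them, and E8-cDRGcm spanned the control values. The fitted log2 difference was -0.44 ± 0.231 (SE, n = 2 libraries per group) in E8-cSGcm, -0.0092 ± 0.218 in E8-cDRGcm and 0.56 ± 0.223 in E15.5-mSGcm. The ratio of pooled reads to control was 0.738 (counting interval 0.556 to 0.977) in E8-cSGcm and 1.48 (1.13 to 1.92) in E15.5-mSGcm. The E8-cSGcm difference was -0.21 without control replicate 1.

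The MT1 genes encode closely related isoforms, and none exceeded 28 reads in a library. MT1X was lower in both chick media: it had 28 and 27 reads in control medium (2.14 and 1.77 CPM), 14 and 6 in E8-cSGcm (1.12 and 0.419 CPM), 16 and 12 in E8-cDRGcm (1.19 and 0.878 CPM) and 11 and 18 in E15.5-mSGcm (1.41 and 2.05 CPM). All 4 chick libraries were below both controls and below both mouse libraries, which overlapped the controls. The fitted log2 difference was -1.36 ± 0.418 (SE, n = 2 libraries per group) in E8-cSGcm, -0.90 ± 0.390 in E8-cDRGcm and -0.16 ± 0.392 in E15.5-mSGcm. Without E8-cSGcm replicate 2 the E8-cSGcm value was -0.79, and without replicate 1 it was -2.18. Without E15.5-mSGcm replicate 1 the E15.5-mSGcm value turned to 0.071.

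MT1F had no read in either E8-cSGcm library. It had 9 and 2 reads in control medium (0.687 and 0.131 CPM), 5 and 3 in E8-cDRGcm (0.373 and 0.219 CPM) and 10 and 12 in E15.5-mSGcm (1.28 and 1.37 CPM). E8-cSGcm lay below and E15.5-mSGcm above both controls, whose own values were 7 reads apart. Against a floor of 3 reads per library, the level in E8-cSGcm was at least 1.73-fold lower than in control medium. That bound rests on control replicate 1, since the 2 reads of control replicate 2 were under the floor themselves. The ratio of pooled reads to control was 3.42 (counting interval 1.59 to 7.80) in E15.5-mSGcm, with a fitted log2 difference of 1.74 ± 0.612 (SE, n = 2 libraries per group), and that difference was 3.23 without control replicate 1 and 0.93 without control replicate 2. In E8-cDRGcm the log2 difference of -0.39 ± 0.761 turned to 1.11 without control replicate 1.

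MT1G was highest in the mouse medium, with 12 and 14 reads (1.53 and 1.60 CPM), against 3 and 8 in control medium (0.229 and 0.525 CPM). E8-cSGcm gave 2 and 4 reads (0.160 and 0.280 CPM), near the floor, and E8-cDRGcm 18 and 7 (1.34 and 0.512 CPM). Only E15.5-mSGcm stood apart from the controls, and the E8-cDRGcm libraries differed from each other by more than the controls did. The ratio of pooled reads to control was 4.04 (counting interval 1.93 to 9.05) in E15.5-mSGcm and 2.38 (1.13 to 5.36) in E8-cDRGcm. The fitted log2 difference was 1.99 ± 0.569 (SE, n = 2 libraries per group) in E15.5-mSGcm, 1.23 ± 0.578 in E8-cDRGcm and -0.77 ± 0.783 in E8-cSGcm. With 1 library left out, these values ranged from 1.55 (without control replicate 1) to 2.71 (without control replicate 2), from 0.39 (without E8-cDRGcm replicate 1) to 1.96 (without control replicate 2) and from -1.22 (without E8-cSGcm replicate 2) to -0.033 (without control replicate 2).

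MT1E had 11 and 7 reads in control medium (0.840 and 0.460 CPM), 2 and 5 in E8-cSGcm (0.160 and 0.350 CPM), 9 and 8 in E8-cDRGcm (0.672 and 0.585 CPM) and 7 and 5 in E15.5-mSGcm (0.895 and 0.570 CPM). E8-cSGcm lay below the controls, and the other media overlapped them. The fitted log2 difference in E8-cSGcm was -1.26 ± 0.665 (SE, n = 2 libraries per group), and the counting interval of the ratio ran from 0.145 to 1.03. That difference was -0.79 without control replicate 1, -0.85 without E8-cSGcm replicate 1 and -1.93 without E8-cSGcm replicate 2. The differences of -0.021 in E8-cDRGcm and 0.18 in E15.5-mSGcm changed sign with the library left out. MT1M had 2 reads in E8-cDRGcm, 1 in E15.5-mSGcm and none elsewhere. MT3, which is best known from neurons, was listed at 0 in all 8 libraries, so a level under the floor of 0.197 to 0.384 CPM per library was not detectable.

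**Figure D2:**
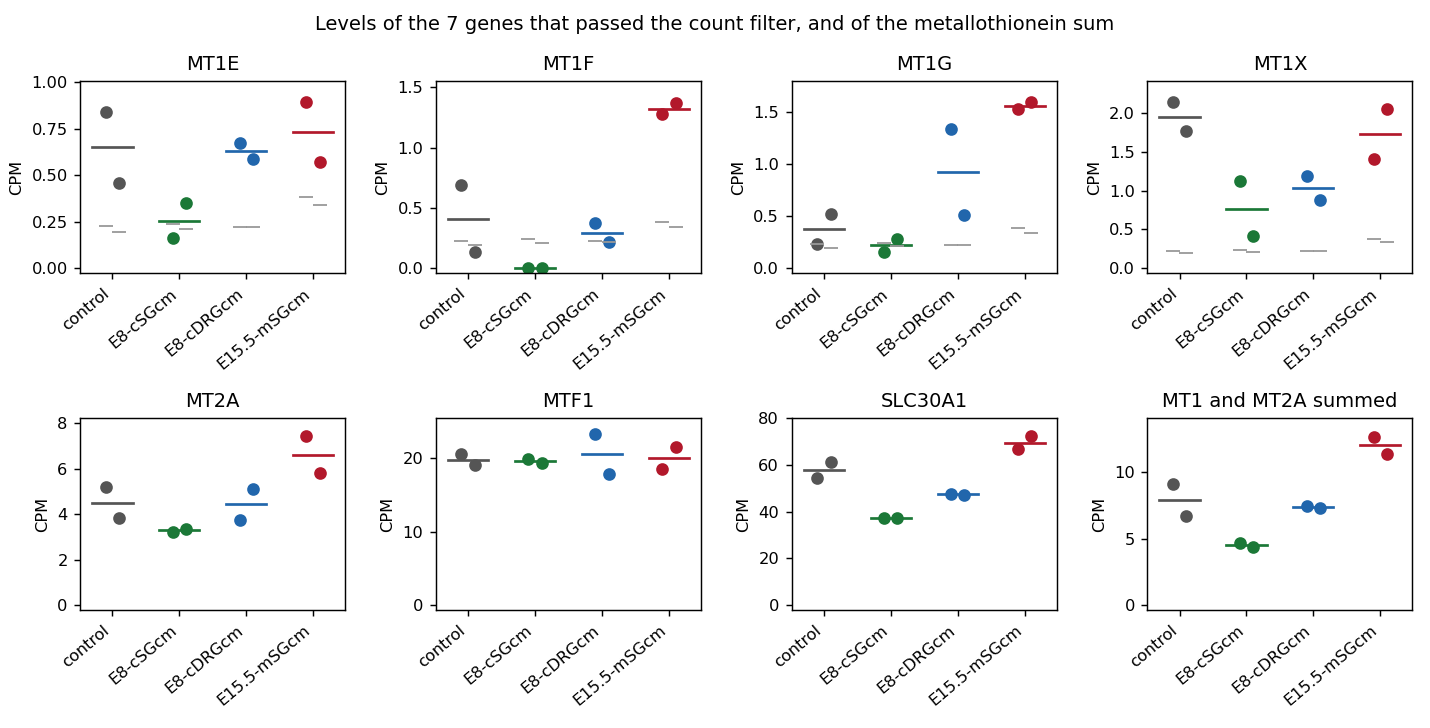
Levels in CPM of the 7 genes that passed the count filter, and of MT1 and MT2A summed, in the 2 libraries of each group (points) with the group mean (line), and in the MT1 panels the floor of 3 reads per library (grey ticks). SLC30A1 runs from 37.1 CPM in E8-cSGcm to 72.5 CPM in E15.5-mSGcm with no overlap of neighbouring groups, while MTF1 stays between 17.9 and 23.4 CPM.

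Relative to the length of all annotated exons, which is not that of a single transcript, SLC30A1 and MT2A were the highest of the group. In RPKM (CPM per kilobase of all annotated exons), the mean level of SLC30A1 was 9.82 in control medium and ran from 6.31 in E8-cSGcm to 11.8 in E15.5-mSGcm. That of MT2A was 4.92 in control medium and ran from 3.59 to 7.24 in the same media. MTF1 kept between 2.46 and 2.58 RPKM, and MT1X, the highest MT1 gene in control medium at 1.13 RPKM, had 0.446 in E8-cSGcm. In E15.5-mSGcm the highest MT1 gene in RPKM was MT1G, at 2.08 RPKM against 0.502 in control medium. In CPM MT1X was above MT1G there, with means of 1.73 and 1.57. The order thus depends on the exon lengths, 1727 bases for MT1X and 751 for MT1G.

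Summed over MT1E, MT1F, MT1G, MT1M, MT1X and MT2A, the metallothionein level followed the order of SLC30A1. The sum was 9.08 and 6.70 CPM in control medium (119 and 102 reads), 4.64 and 4.40 CPM in E8-cSGcm (58 and 63 reads), 7.47 and 7.31 CPM in E8-cDRGcm (100 and 100 reads) and 12.7 and 11.4 CPM in E15.5-mSGcm (99 and 100 reads). E8-cSGcm lay below and E15.5-mSGcm above all other libraries, and E8-cDRGcm lay between the controls. The ratio of pooled reads to control was 0.579 (counting interval 0.460 to 0.726) in E8-cSGcm, 0.947 (0.778 to 1.15) in E8-cDRGcm and 1.54 (1.26 to 1.87) in E15.5-mSGcm. Without control replicate 1, the log2 ratio of the sum was -0.57 instead of -0.80 in E8-cSGcm, 0.14 instead of -0.095 in E8-cDRGcm and 0.85 instead of 0.61 in E15.5-mSGcm. The sum was at most 0.00125% of a library.

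The MT1 genes moved further than MT2A in E8-cSGcm, and MT2A took a larger share of the sum there. Without MT2A the sum was 3.39 ± 0.711 CPM (SD, n = 2) in control medium and 1.24 ± 0.277 CPM in E8-cSGcm, a ratio of pooled reads of 0.367 (counting interval 0.239 to 0.551), whereas the MT2A ratio was 0.738. The MT2A share of the sum was 69.0% and 76.2% in E8-cSGcm, against 57.1% and 56.9% in control medium. It was 50% and 70% in E8-cDRGcm and 58.6% and 51% in E15.5-mSGcm, so that the E8-cDRGcm libraries spanned the controls.

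**Figure D3:**
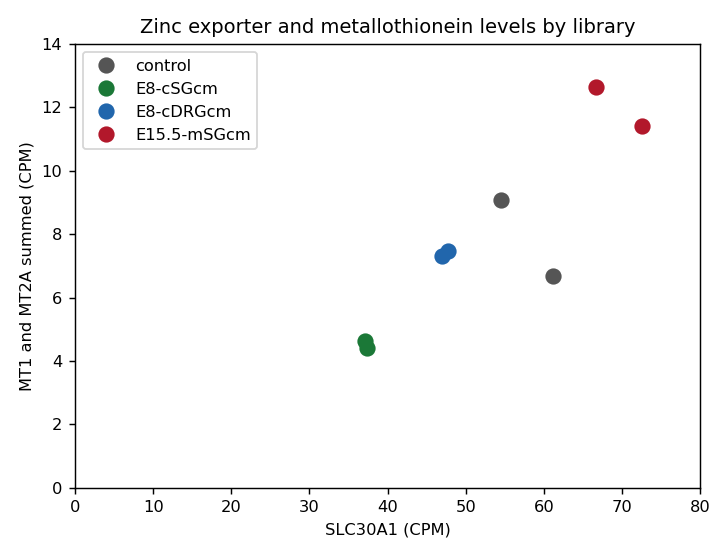
Summed level of MT1 and MT2A (CPM, vertical axis) against the level of SLC30A1 (CPM, horizontal axis) in the 8 libraries, coloured by medium. The E8-cSGcm libraries lie at 4.40 and 4.64 CPM of the sum with 37.1 and 37.3 CPM of SLC30A1, and the E15.5-mSGcm libraries at 11.4 and 12.7 CPM with 72.5 and 66.6 CPM.

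As a description over the 8 libraries, which fall into 4 groups and share depth and scaling, Pearson's r of the log2(CPM + 1) level with that of the sum was 0.897 for SLC30A1 and 0.10 for MTF1. Among 14887 other tested genes with a mean of at least 1 CPM, the most alike were NNT (r = 0.978), a mitochondrial NADPH-producing enzyme, ZC3H8 (0.978), TMTC1 (0.976), MINDY2 (0.974) and the scaffold gene DLG1 (0.973). The most opposite were NBEAL2 (r = -0.984), XXYLT1 (-0.979), the protein C receptor gene PROCR (-0.974), the kinase gene STK25 (-0.974) and TXNRD3 (-0.972).

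Counted as genes, 7 of the 9 passed the filter on low counts and entered the fit of 16680 genes, MT1M and MT3 being left out. A call needed a change of 1.5-fold or more together with an adjusted p below 0.05. In E8-cSGcm 3 of the 7 were called lower (SLC30A1, MT1X and MT1F) and none higher, beside 3.86% of all tested genes called lower and 4.73% called higher. None was called in E8-cDRGcm, where 10.9% of all tested genes were called lower and 9.81% higher. In E15.5-mSGcm 2 (MT1G and MT1F) were called higher and none lower, beside 6.65% and 7.27% of all tested genes. The calls of MT1F and MT1G rested on at most 14 reads per library, and with DESeq2 only SLC30A1 in E8-cSGcm remained called. At 10 counts in every library SLC30A1 in E8-cSGcm was also the only call. That filter removed MT1F, MT1G and MT1X before the test, so it cannot check their calls. Without control replicate 1 or E8-cSGcm replicate 2, SLC30A1 alone was called in E8-cSGcm, and without control replicate 2 or either E15.5-mSGcm library, MT1G alone was called in E15.5-mSGcm. Without control replicate 1 the calls in E15.5-mSGcm were MT2A and MT1F, and MT1G was not called, so neither MT1G nor MT1F kept its call under every omission. In E8-cDRGcm, MT1X was called lower without either E8-cSGcm library, and MT1G higher without E8-cDRGcm replicate 2.

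Without a test, both libraries of E8-cSGcm lay below both controls for 5 of the 7 genes (MT1E, MT1F, MT1X, MT2A and SLC30A1) and above them for none, beside 30.5% and 33.2% of all tested genes. In E8-cDRGcm 2 of the 7 (MT1X and SLC30A1) lay below and none above, beside 36.8% in each direction. In E15.5-mSGcm 4 of the 7 (MT1F, MT1G, MT2A and SLC30A1) lay above and none below, beside 32.4% and 35.9%. The median log2 difference of the 7 was -0.77 in E8-cSGcm, -0.021 in E8-cDRGcm and 0.26 in E15.5-mSGcm, and that of all tested genes was 0.010, 0.0055 and -0.015. These counts describe genes listed with the values known.

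**Figure D4:**
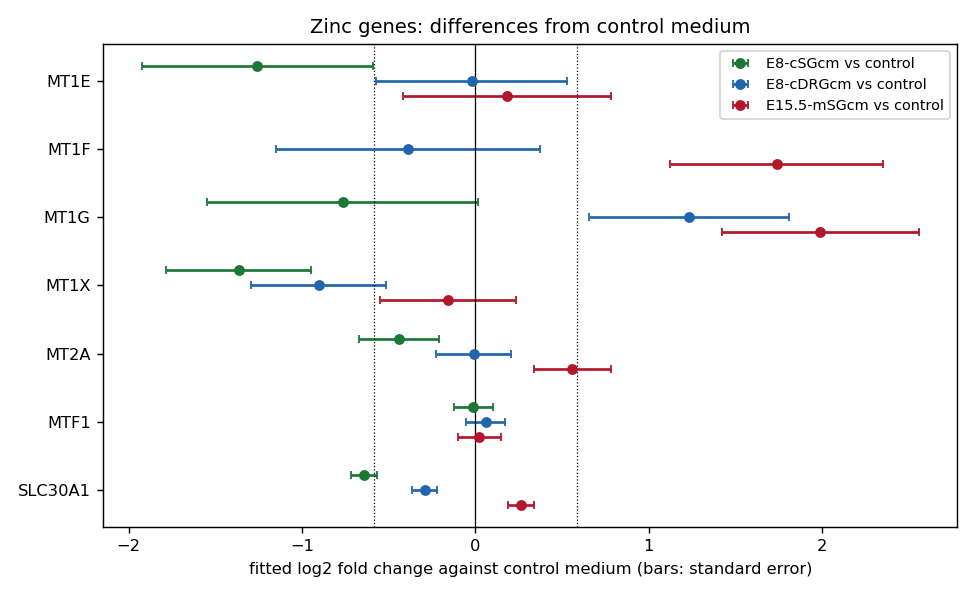
Fitted log2 fold change against control medium (horizontal axis) of the 7 genes in each conditioned medium, with bars for the standard error, dotted lines at a 1.5-fold change and no point for MT1F in E8-cSGcm, where it had no read. SLC30A1 is at -0.64 in E8-cSGcm, -0.29 in E8-cDRGcm and 0.26 in E15.5-mSGcm.

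The other metallothionein genes and pseudogenes gave almost nothing. Of 14 listed, 9 were at 0 in every library and none passed the filter. MT1XP1, which shares sequence with MT1X, had 3 to 6 reads per library, and MT1H had 3 reads in each E15.5-mSGcm library and none elsewhere.

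The other zinc transporters are outside the list, and their genes were tested in the fit across all genes. Like the MTF1 target, copper and glucocorticoid lists below, they were listed with earlier results of these data known. The counts over these lists, beside the shares of all tested genes, are therefore descriptions. Of 23 genes of the SLC30 exporter and SLC39 importer families, 15 passed the filter. In E8-cSGcm 1 fell and none rose, in E8-cDRGcm 3 fell and 1 rose, and in E15.5-mSGcm 1 rose and none fell, with median log2 fold changes of 0.043, 0.077 and 0.074. The shares of all tested genes called lower and higher were 3.86% and 4.73% in E8-cSGcm, 10.9% and 9.81% in E8-cDRGcm and 7.27% and 6.65% in E15.5-mSGcm. With an adjusted p below 0.05 as the only criterion, 7, 10 and 7 of the 15 passed, beside 5213, 8261 and 6305 of all 16680 tested genes. Among 5 tested exporters only SLC30A6, a zinc transporter of the Golgi apparatus, was called, with 30.7 ± 0.619 CPM (SD, n = 2) in control medium and 17.1 ± 0.741 CPM in E8-cDRGcm (log2 fold change -0.85, edgeR adjusted p = 4.64e-09). SLC30A6 was also 0.48 lower on the log2 scale in E8-cDRGcm than in E8-cSGcm (edgeR adjusted p = 0.000400), less than a 1.5-fold difference, whereas SLC30A1 was higher in E8-cDRGcm than in E8-cSGcm.

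Among 10 tested importers, SLC39A1, which takes up zinc at the plasma membrane, fell in both chick media, from 5.03 ± 0.985 CPM (SD, n = 2) in control medium to 3.17 ± 0.0393 CPM in E8-cSGcm (log2 fold change -0.65, edgeR adjusted p = 0.0203) and 3.14 ± 0.215 CPM in E8-cDRGcm (-0.67, edgeR adjusted p = 0.0108). Neither call held with DESeq2 (adjusted p = 0.163 and 0.122) or without control replicate 1. SLC39A13 fell in E8-cDRGcm (log2 fold change -0.61, edgeR adjusted p = 0.000317), just past the 1.5-fold criterion, which it missed without control replicate 1 (-0.57) or E8-cDRGcm replicate 2 (-0.58). SLC39A8 rose there (0.59, edgeR adjusted p = 3.66e-07) and is named after its value was seen. At 1.504-fold it was also only just past the criterion, and its values with a library left out are not given here. SLC39A11 rose in E15.5-mSGcm, from 13.3 ± 1.13 to 21.6 ± 3.28 CPM (log2 fold change 0.70, edgeR adjusted p = 2.27e-05), but by less than 1.5-fold (0.52) without E15.5-mSGcm replicate 2. SLC39A7 and SLC39A12 were listed at 0 in every library, and a listed 0 does not tell absent RNA from reads lost in mapping or counting. Over both families, the 4 calls in E8-cDRGcm became 1 without control replicate 1 and 2 without E8-cDRGcm replicate 2.

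Other genes known as MTF1 targets went in both directions in the chick media. Of 6 listed, 5 were tested. NDRG1, a stress and hypoxia response gene, rose in E8-cSGcm (log2 fold change 0.92, edgeR adjusted p = 0.00219) and in E8-cDRGcm (1.64, edgeR adjusted p = 4.38e-08), although the first call was lost without control replicate 2 (0.59, adjusted p = 0.121). PGF, which encodes placental growth factor, fell in E8-cSGcm (-0.73, edgeR adjusted p = 1.58e-10) and in E8-cDRGcm (-0.97, edgeR adjusted p = 3.48e-14). CSRP1, which encodes a LIM domain protein, fell in E8-cDRGcm (-0.59, edgeR adjusted p = 1.69e-07) and is named after its value was seen. It was 1.507-fold lower, only just past the criterion, and its values with a library left out are not given here. No gene of this list was called in E15.5-mSGcm.

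Copper handling genes serve the other metal that metallothioneins bind. All 9 listed were tested, and both libraries were above both controls for 9 of 9 in E8-cSGcm, 8 of 9 in E8-cDRGcm and 3 of 9 in E15.5-mSGcm, where 4 lay below. Of all tested genes, 33.2%, 36.8% and 32.4% lay above the controls in these media, and 35.9% below them in E15.5-mSGcm. The median log2 fold changes were 0.29, 0.40 and -0.082. Only the copper exporter gene ATP7B in E8-cDRGcm was called, with 20.2 ± 1.00 CPM (SD, n = 2) in control medium and 33.3 ± 1.69 CPM (log2 fold change 0.72, edgeR adjusted p = 5.93e-08). SLC31A1 in E8-cDRGcm (1.497-fold higher, edgeR adjusted p = 7.93e-11) and SLC31A2 in E8-cSGcm (1.498-fold, edgeR adjusted p = 0.00893) missed a call by the fold criterion alone. Both are named after their values were seen.

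Glucocorticoids are a second known inducer of metallothioneins. The list here holds genes that the glucocorticoid receptor induces in many cells, and the receptor gene NR3C1 itself. The genes called differed by medium. Of 9 listed, 8 were tested, and ZBTB16 was at 0 in every library. Of the 8, 1, 2 and 3 were called higher in E8-cSGcm, E8-cDRGcm and E15.5-mSGcm, and none lower. Of all tested genes, 4.73%, 9.81% and 6.65% were called higher in these media, and 3.86%, 10.9% and 7.27% lower. KLF9 rose in E8-cSGcm (log2 fold change 0.94, edgeR adjusted p = 3.66e-07) and E8-cDRGcm (1.10, edgeR adjusted p = 2.71e-09), and TSC22D3 in E8-cDRGcm from 34.0 ± 2.87 to 106 ± 4.50 CPM (SD, n = 2; 1.64, edgeR adjusted p = 2.19e-17). In E15.5-mSGcm, where the metallothionein sum was highest, the called genes were SGK1 (0.568 ± 0.0605 to 9.09 ± 1.82 CPM, log2 fold change 3.99, edgeR adjusted p = 4.01e-11), DUSP1 (1.22, edgeR adjusted p = 1.02e-09) and the receptor gene NR3C1 (0.64, edgeR adjusted p = 5.73e-07, named after its value was seen). TSC22D3 and KLF9 were not called there (0.22 and 0.21, edgeR adjusted p = 0.0811 and 0.300), and both were lower in E15.5-mSGcm than in E8-cDRGcm (-1.42 and -0.88, edgeR adjusted p = 2.87e-15 and 1.09e-06). Of the 8 tested genes, 3 lay above both controls in E15.5-mSGcm and 2 below. Those below were FKBP5 (-0.47, edgeR adjusted p = 5.72e-07) and PER1 (-0.27, edgeR adjusted p = 0.0276). Each changed by less than 1.5-fold and is named after its value was seen.

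**Figure D5:**
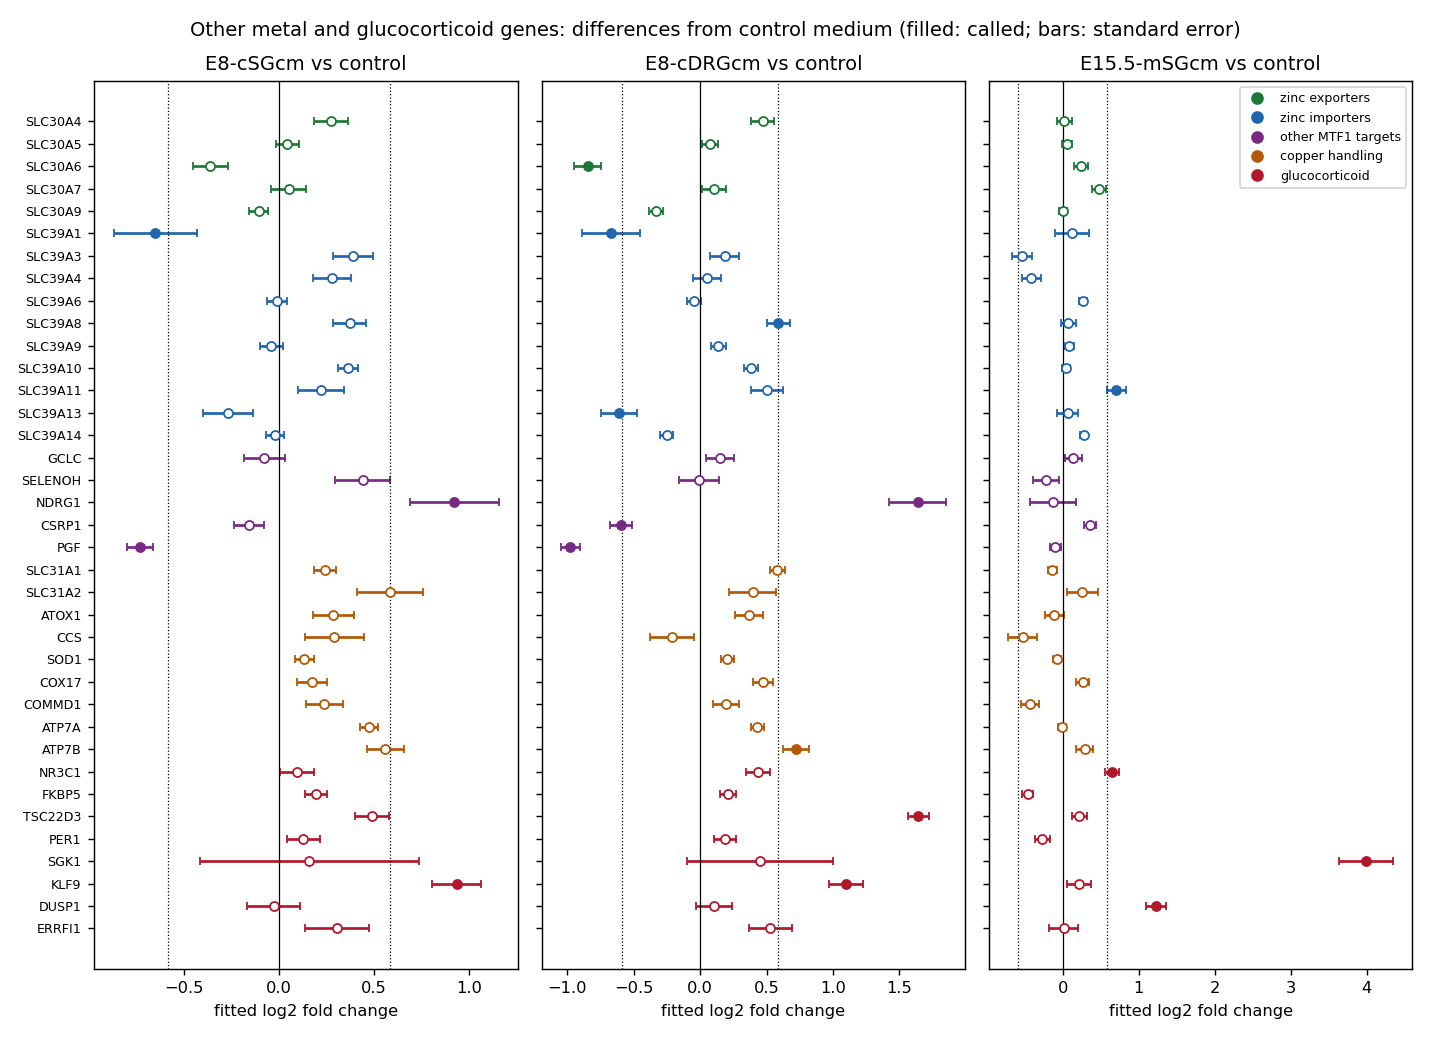
Fitted log2 fold changes against control medium (horizontal axes, which differ in scale, with standard errors) of the tested zinc transporters, MTF1 targets, copper handling and glucocorticoid response and receptor genes in the 3 conditioned media, filled where called, with dotted lines at a 1.5-fold change. SGK1 in E15.5-mSGcm, at 3.99, is the highest point, and 4 of the 15 zinc transporters are filled in E8-cDRGcm against 1 in each of the other media.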

How the data were processed

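Bulk RNA-seq of 8 libraries, 2 per group, was analysed. A stranded kit was used on 50 ng of total RNA, and libraries were read as single 75-bp reads. The values are raw counts per Ensembl gene, deposited by the authors without normalization. The submitters' processing notes name bcl2fastq 2.17.1.14, cutadapt 1.9.1, TopHat2 2.1.0 and HTSeq 0.11.3. The sources name different genome builds, and the annotation release and strand option are not given in the sources used here. Reads that match several genes may have been dropped or split in counting, which bears on the MT1 genes. The table gives no coordinates, so those printed are RefSeq's on GRCh38.

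Of 60676 identifiers, 58611 were matched to a symbol (GENCODE and RefSeq). PECAM1 was the 1 of 107 listed genes without a match. Counts were scaled by TMM and fitted with edgeR 4.0.16 in R 4.3.3 (filterByExpr by group, robust quasi-likelihood test, 1 model of 8 libraries, Benjamini-Hochberg adjustment over 16680 genes). Standard errors were derived from that fit, as the absolute log2 fold change divided by the square root of its F statistic, so they are approximate. Steps were tested on simulated data. Figures were drawn with matplotlib 3.10.9.

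The members and gene lists were chosen with earlier results of these data known. Named genes are the 9 members, in each other list the 2 called genes with the largest change per medium (or, in a list with none called, the most abundant tested gene), and the 5 genes most like and most opposite to the metallothionein sum, with exceptions stated beside them. Marker lists were used as a check of cell type, and 1 listed marker is not reported here. The replicate numbers come from the titles. Same-numbered libraries did not deviate together (correlations of -0.0742 to 0.0414 over 6 pairs), so no block was used.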

Additional observations from a re-analysis of the deposited data

Results flagged for a closer look

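For 3 genes, both libraries of one conditioned medium lay below both controls while both libraries of another lay above them, so that the media stood on opposite sides of control medium. The pattern is common: 10.4% of the 16680 tested genes lay below control in E8-cSGcm and above it in E15.5-mSGcm, and 10.1% below in E8-cDRGcm and above in E15.5-mSGcm. These differences between media were not tested, since the genes were listed with their values known. SLC30A1 was 32.4 CPM higher in E15.5-mSGcm than in E8-cSGcm and 22.2 CPM higher than in E8-cDRGcm. MT2A was 3.34 CPM higher in E15.5-mSGcm than in E8-cSGcm. MT1F was 1.32 CPM higher in E15.5-mSGcm than in E8-cSGcm, where it had no read. The mouse medium and the chick media differ in species, in the age of the embryos and in library depth, which cannot be told apart here.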

How the results depend on the processing

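The metallothionein calls rest on few reads, and 2 libraries per group limit every value. With DESeq2 1.42.0, 851 genes were called in E8-cSGcm against 1433, with 1 of the 9 genes in E8-cSGcm, 0 in E15.5-mSGcm and 0 zinc transporters in E8-cSGcm. At 10 counts in every library, 1 of the 9 was called in E8-cSGcm and 0 in E15.5-mSGcm, because MT1F, MT1G and MT1X did not enter the test. At 1 count in total, 2 zinc transporters were called in E15.5-mSGcm, and with only the libraries compared, 1 of the 9 (MT1X) in E8-cDRGcm and 2 (SLC30A1 and MT1X, without MT1F) in E8-cSGcm. With adjusted p alone, 5213, 8261 and 6305 genes passed in E8-cSGcm, E8-cDRGcm and E15.5-mSGcm, with 7, 10 and 7 zinc transporters, 1 of the 9 in E8-cDRGcm (SLC30A1) and 4 in E15.5-mSGcm. The log2 ratio of the sum in E8-cSGcm was -1.45 without MT2A. The cause of the other changes was not tested.

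With each library left out in turn, 1182 to 1424 genes were called in E8-cSGcm, 3153 to 3585 in E8-cDRGcm and 1797 to 2429 in E15.5-mSGcm. Of the 9 genes, 1 to 3, 0 to 1 and 1 to 2 were called, and of the zinc transporters 0 to 1, 1 to 5 and 0 to 2. The 3 calls in E8-cSGcm became 1 without control replicate 1 or E8-cSGcm replicate 2, and SLC30A1 lost its call without control replicate 2. The 2 calls in E15.5-mSGcm became 1 without control replicate 2 or either E15.5-mSGcm library (MT1G), and were MT2A and MT1F without control replicate 1. The log2 ratio of the sum, an alternative chosen after seeing the data, ranged from -1.01 to -0.57, from -0.30 to 0.14 and from 0.41 to 0.85. Directions that were not called turned for MTF1 in every medium (-0.15 to 0.24 over all), for MT1E (-0.41 to 0.44), MT1F (-1.19 to 1.11), MT2A (-0.25 to 0.22) and the sum in E8-cDRGcm, and for MT1E (-0.22 to 0.64) and MT1X (-0.47 to 0.071) in E15.5-mSGcm. Among named genes outside the 9 they turned for 6: in E15.5-mSGcm NDRG1 (-0.47 to 0.23), SLC39A1 (-0.086 to 0.31), SLC39A13 (-0.11 to 0.20) and TSC22D3 (-0.019 to 0.40), and in E8-cSGcm SGK1 (-1.75 to 0.88) and DUSP1 (-0.064 to 0.016).

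With the replicate number as a replicate block, 1414, 3444 and 2288 genes were called, with 3, 0 and 2 of the 9 genes and 1, 4 and 1 zinc transporters, and the block changed no call among the named genes.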
